A study of Mus musculus with 2 samples.

Results

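Red blood cells were taken here as the cells of limb tendon preparations in which over 50% of the UMIs fell on the 4 adult globin genes Hba-a1, Hba-a2, Hbb-bs and Hbb-bt. They numbered 88 of 2364 cells (3.72%, exact 95% binomial interval 2.996 to 4.57%) in the WT library and 79 of 2592 cells (3.05%, interval 2.42 to 3.78%) in the mutant library, 167 of 4956 cells in all. A UMI (unique molecular identifier) marks 1 mRNA molecule caught at its 3′ end, so a UMI count does not grow with the length of the gene. The cells were thus chosen by their measured globin share, so their globin content is given only as a description, and the text turns on what else they held.

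The study deleted the type II TGF-beta receptor from tendon cells. Both libraries came from mouse pups at P7, and all animals of the study carried the tendon reporter ScxGFP and the Cre reporter Ai14 Rosa26-tdTomato. The mutant library came from Tgfbr2;ScxCre pups, in which floxed Tgfbr2 is cut by a Cre driven by a Scx enhancer in the tendon lineage. The study writes their genotype as Tgfbr2 f/-;ScxCre, so by this notation a minus allele lay beside the floxed one in all cells, red cells included. The control library is named WT by its title and genotype but Het by another label. Each library was 1 pool of fore- and hindlimb tendons from 2 pups, released by enzymes without scraping of the tissue. With 1 library for each genotype there was no spread between replicates, no test was run, library and genotype cannot be told apart, and all intervals cover counting error only.

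Hemoglobin is made of alpha and beta chains that each carry heme, a ring that holds iron. Erythroid cells switch off most other genes as they mature, push out their nucleus and become reticulocytes, which still hold globin mRNA and lose it, with their ribosomes and mitochondria, as they become erythrocytes. A reticulocyte therefore holds little mRNA apart from globin, and an erythrocyte little RNA of any kind. In droplet sequencing, RNA that leaks from damaged cells into the suspension also enters droplets, and a cell type that is not known to transcribe a gene can serve to measure how much of that gene's RNA a droplet received.

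The adult red cells of the mouse carry paired alpha genes on chromosome 11 and paired beta genes on chromosome 7. On GRCm38 (GENCODE M21), Hba-a1 (ENSMUSG00000069919) lies at 32283511 to 32284465 and Hba-a2 (ENSMUSG00000069917) at 32296489 to 32297298 of chromosome 11, both on the plus strand. Hbb-bs (ENSMUSG00000052305) lies at 103826534 to 103828096 and Hbb-bt (ENSMUSG00000073940) at 103812524 to 103813996 of chromosome 7, both on the minus strand. The 120 bases before the RefSeq start (GRCm38.p6) are shown for 3 of the 4 genes that define the cells and for Hbb-y, an embryonic beta globin gene with 0 UMIs in them. RefSeq and GENCODE M21 place the starts of Hba-a1, Hbb-bs and Hbb-bt at different bases. The windows of Hba-a1 and Hbb-bs therefore lie within the GENCODE spans given above, and that of Hbb-bt overlaps its span. Capitals mark 3 motifs that were searched on both strands. CACCC, the core of sites for Klf1-type factors, reads GGGTG on the other strand. CCAAT, the core of the CCAAT box, reads ATTGG there. TATAA, the core of the TATA box, reads TTATA there. No matches overlapped, and a pair of CCAAT matches on opposite strands abut in Hbb-bt.
Hba-a1, chr11:32283552-32283671, plus strand: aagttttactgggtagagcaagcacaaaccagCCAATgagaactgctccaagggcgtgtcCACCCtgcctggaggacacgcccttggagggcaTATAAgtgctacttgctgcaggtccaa
Hbb-bs, chr7:103827929-103828048, minus strand: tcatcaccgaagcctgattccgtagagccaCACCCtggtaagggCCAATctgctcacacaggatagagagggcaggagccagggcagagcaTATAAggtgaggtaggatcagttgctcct
Hbb-bt, chr7:103813924-103814043, minus strand: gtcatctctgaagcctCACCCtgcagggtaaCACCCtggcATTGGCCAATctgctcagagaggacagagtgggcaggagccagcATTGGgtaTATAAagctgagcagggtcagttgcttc
Hbb-y, chr7:103853208-103853327, minus strand: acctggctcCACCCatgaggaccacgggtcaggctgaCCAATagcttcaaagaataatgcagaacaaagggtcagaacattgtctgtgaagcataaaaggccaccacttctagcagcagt
The Hba-a2 window held the same sequence shifted by 3 bases, with 0 mismatches over 117 compared bases, and is not printed. Each of the 3 motifs was in all 4 adult windows, against 31.7% (CACCC), 21.3% (CCAAT) and 11.8% (TATAA) of 32851 RefSeq promoters, searched over the same 120 bases. TATAA began 27 to 30 bases before the RefSeq start in each adult gene, and the Hbb-y window held the other motifs but not this one. GATAA, the core of sites for GATA factors, which reads TTATC on the other strand, was in none of the 4 adult windows (0 of 4) and in 10.5% of all promoters. Among 30 genes of the erythroid lists below that had a RefSeq promoter, 14 held CACCC, 7 held CCAAT, 2 held TATAA and 9 held GATAA. These matches describe the letters of the windows and are not evidence that a factor binds there.

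The cells fell into sharply separate classes by globin share. In the WT library the member nearest the threshold held 64.2% globin, the next 66.3% and the third 92.0%. In the mutant library the lowest members held 80.3%, 88.2% and 92.7%. Just outside the threshold were WT cells with 37.9% and 36.8% and mutant cells with 37.8%, 37.5%, 18.4% and 14.3%, below which the highest values were 0.987% in WT and 2.82% in mutant cells. Over 90% globin were 86 WT and 77 mutant red cells.

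**Figure D1:**
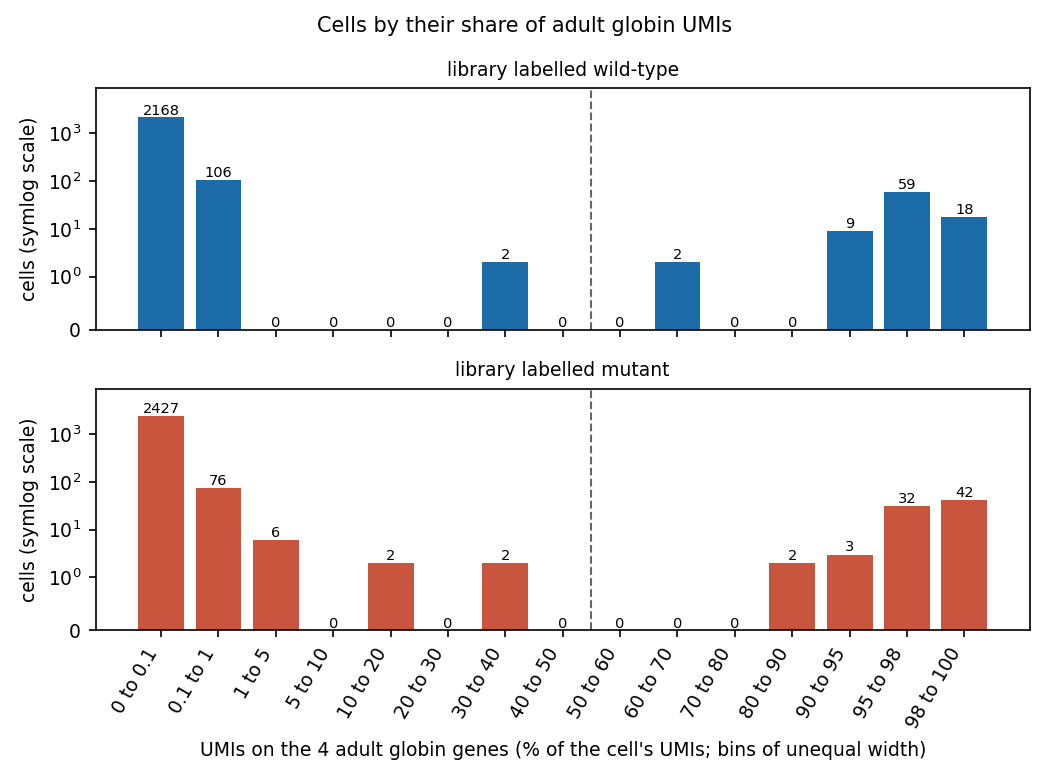
Number of cells (vertical axis, symlog scale) in bins of the share of UMIs on the 4 adult globin genes (horizontal axis, percent, bins of unequal width), with the WT library above and the mutant library below; the dashed line marks the 50% threshold. Nearly all cells lie under 1% or over 90%, with 4 WT and 6 mutant cells from 5 to 90%.

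The few members between 50 and 90% globin carried much of the non-globin RNA. The WT pair held 3850 and 2845 non-globin UMIs, 30.9% of the 21652 non-globin UMIs of all WT red cells. The mutant pair held 1417 and 611, 19.7% of 10293. The mutant cell with 80.3% globin held 207 UMIs of skeletal muscle genes, and the WT cell with 64.2% globin held 212 UMIs of fibroblast and peritenon genes. Scrublet called 26 WT and 8 mutant cells as doublets, but called 0 red cells and 0 of the 10 cells from 5 to 90% globin, so doublets stayed in. List levels are therefore given mainly for the cells over 90% globin. The libraries shared 2 cell barcodes, 1 of which marked a red cell.

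Red cells had more UMIs than the other cells but far fewer genes. WT red cells ranged from 1092 to 11477 UMIs with a median of 5682, and mutant red cells from 922 to 8705 with a median of 4451. The medians of other cells were 3817 and 2809 UMIs. Outside globin, WT red cells over 90% globin held 19 to 588 UMIs with a median of 141.5, and mutant ones held 10 to 411 with a median of 77. The median number of detected genes was 91.5 in these WT cells and 46 in these mutant cells, against 1495 and 1283 in other cells. Both medians were lower in the mutant library, and the ranges of the libraries overlapped over most of their span.

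**Figure D2:**
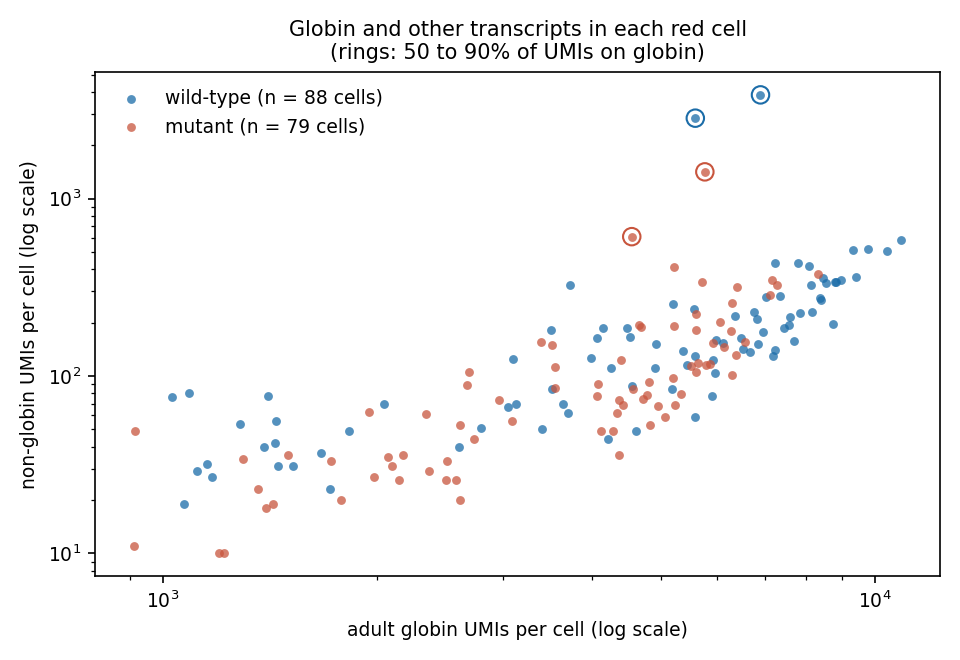
Each point is 1 red cell, with its adult globin UMIs on the horizontal axis and its non-globin UMIs on the vertical axis, both on log scales; rings mark the 4 cells from 50 to 90% globin. Non-globin UMIs rise with globin UMIs in both libraries, and the ringed cells hold 611 to 3850 non-globin UMIs, above all others.

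The label of red blood cells was checked against further erythroid markers and against markers of other cells. Alas2, the heme synthesis enzyme specific to erythroid cells, was detected in 90.7% of WT and 96.1% of mutant cells over 90% globin, and in 0.308% and 0.199% of other cells. Slc4a1, the anion exchanger band 3, had 26 UMIs in WT and 17 in mutant red cells, and 0 in all 2276 WT and 2513 mutant other cells. Of 14 immune genes, 8 in WT and 12 in mutant red cells had 0 UMIs, and all 14 together gave 7 and 2 UMIs over the cells above 90% globin. The 8 platelet genes summed to 0 and 1 UMI there, the 10 endothelial genes to 0 and 1, and the 9 neutrophil genes to 3 and 0. The label of red cells was thus met by markers that the rule did not use, while defining genes of leukocytes, platelets and endothelium were at or near 0. Counts of 0 were common for genes of any kind at this depth, since the median CPM ratio over all tested mutant genes was 0. The low counts of these lists alone therefore add little to the label.

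The globins were adult. Embryonic globins (Hbb-y, Hbb-bh1, Hbb-bh2 and Hba-x) had 0 UMIs in WT red cells and 1 UMI, of Hbb-bh1, in mutant red cells. WT red cells held 129067 UMIs of Hba-a1, 93029 of Hba-a2, 208046 of Hbb-bs and 37623 of Hbb-bt. Mutant red cells held 86133, 59900, 151491 and 25101 in the same order. By these counts Hbb-bs was highest and Hbb-bt lowest in both libraries, an order that rests on how UMIs were split within the alpha and the beta pair. The alpha sum was 222096 UMIs in WT, above Hbb-bs, and 146033 in mutant, below Hbb-bs. The transcripts of Hba-a1 and Hba-a2 differed by 1 base of 538 in the stretch up to the Hba-a1 3′ end. Their split, 58.1% and 59.0% on Hba-a1, is therefore uncertain, and only their sum is used below. The last 150 bases of Hbb-bs and Hbb-bt were 73.4% identical, so reads within that stretch can tell them apart. Bases further upstream were not compared. The Hbb-bt shares below take the split of the beta UMIs as counted.

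The make-up of globin varied from cell to cell well beyond counting error. Alpha genes gave 47.5% of globin UMIs in WT and 45.3% in mutant red cells. Single WT cells ranged from 28.3 to 68.7% alpha (SD 5.94, counting SD 0.848) and single mutant cells from 31.1 to 66.9% (SD 6.30, counting SD 0.902). Hbb-bt gave 15.3% of beta UMIs in WT and 14.2% in mutant red cells, and 13.9% in mutant cells over 90% globin. Its share in single cells ran from 0 to 25.3% in WT (SD 6.10, counting SD 0.878) and from 0.776 to 23.7% in mutant cells (SD 5.54, counting SD 0.876). The gap between the spread of the cells and the counting SD was thus several-fold for both measures in both libraries.

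The Hbb-bt share marked a group of cells with fewer UMIs in all and fewer erythroid transcripts per globin UMI. A split at 8%, chosen after the values had been seen, put 20 WT and 18 mutant cells over 90% globin under it. These cells had a median of 1928 UMIs in WT and 2302 in mutant, against 6658.5 and 4889 in the remaining 66 and 59 cells. Their median of non-globin UMIs was 64.5 and 28, against 172.5 and 101. Their alpha share was 53.0% and 52.0%, against 46.8% and 44.4%. Summed over 47 measured erythroid genes (heme synthesis, membrane and skeleton, metabolism and antioxidants, and late maturation), they held 28.5 UMIs per 10000 globin UMIs in WT and 34.9 in mutant, against 87.2 and 95.7 in the other red cells. Among red cells of at least 8% Hbb-bt whose total was no higher than the highest total under 8%, the values were 69.4 in 30 WT cells and 89.7 in 10 mutant cells. The totals of these groups were still unequal, with medians of 4662.5 UMIs against 1928 in WT and 1667.5 against 2302 in mutant cells, and 1 WT cell of 6144 UMIs, with 7.98% Hbb-bt, set the limit there, above the next at 4260. The part of total UMIs in the difference was not tested.

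**Figure D3:**
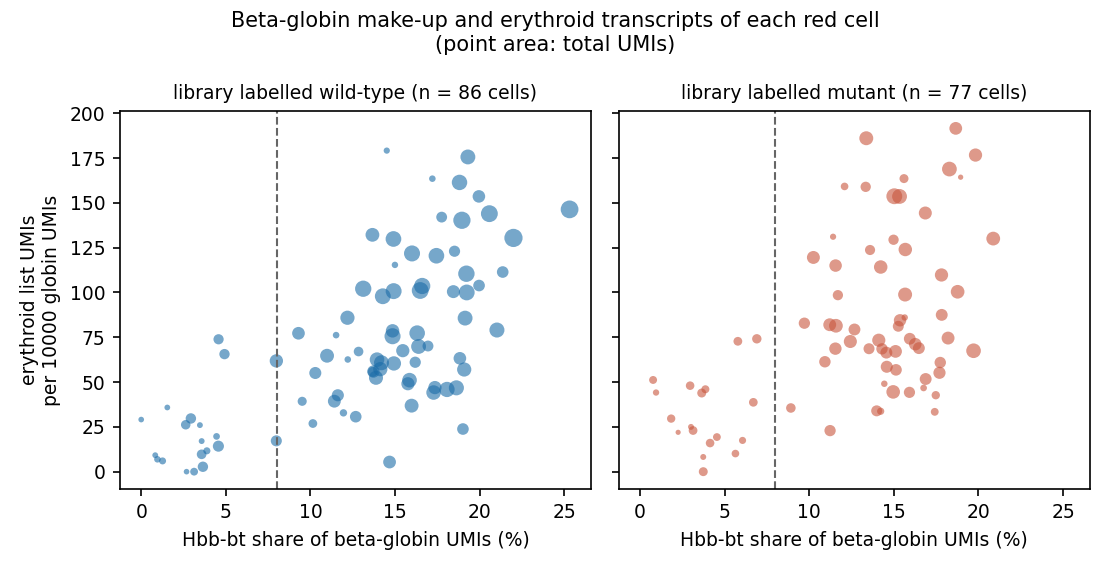
Each point is 1 red cell over 90% globin, with the Hbb-bt share of beta-globin UMIs (percent) on the horizontal axis and erythroid list UMIs per 10000 globin UMIs on the vertical axis; point area follows total UMIs and the dashed line is at 8%. Cells left of the line are mostly low in total UMIs and in erythroid transcripts in both libraries, with medians of 17.1 (WT) and 27.3 (mutant) against 75.9 and 81.1 to the right.

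Single genes followed this split unequally, on the scale of UMIs per globin UMI. Gpx1, glutathione peroxidase, had 4 UMIs against 346 in WT and 0 against 256 in mutant cells. Bpgm, of the 2,3-bisphosphoglycerate pathway, had 4 against 393 and 6 against 234, which is 0.083 (interval 0.022 to 0.214) and 0.183 (0.067 to 0.405) of the level, and Mkrn1, a ubiquitin ligase, had 12 against 483 and 2 against 386. Alas2 kept more, at 0.721 (0.549 to 0.932) in WT and 0.923 (0.728 to 1.16) in mutant cells, and Ube2l6 was at 0.904 and 0.556. Ftl1, the ferritin light chain, was at 1.37 (1.11 to 1.68) and 1.31 (0.991 to 1.71), with the mutant interval reaching below 1. The tendon list had 9.05 UMIs per cell under 8% and 9.39 in the other red cells in WT, and 0.667 and 1.19 in mutant. Per globin UMI, its most abundant gene Col1a1 was at 2.18 (1.64 to 2.87) in WT and at 0.340 (0.008 to 2.12) in mutant cells, the latter from 1 UMI against 21.

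Transcripts of late red cells led the non-globin RNA. Of the 10 non-globin genes with most UMIs in red cells, 9 were the same in both libraries (among them Alas2, Bpgm, Fth1, Ftl1, Gpx1, Mkrn1, Ubb and Ube2l6), joined by Col1a1 in WT and Fech in mutant. Of the 10 genes with the largest ratio to other cells, 7 were the same (among them Alas2, Bpgm, Car2, Isg20 and Rsad2). On the scale of UMIs per cell, 42 of 4544 genes tested (0.924%) in WT and 44 of 4202 (1.05%) in mutant were at least 2-fold higher in red cells than in other cells. As counts per 1e6 non-globin UMIs (CPM), 488 WT genes (10.7%) and 470 mutant genes (11.2%) were at least 2-fold higher, and 47.7% and 73.3% at least 2-fold lower. The median CPM ratio over all tested mutant genes was 0, so many lower calls there are genes with 0 UMIs at low depth. Shares of lower genes therefore cannot be compared between the libraries. Against other cells, the red cells over 90% globin had 41 WT genes (0.916%) and 32 mutant genes (0.766%) at least 2-fold higher by UMIs per cell, and 502 (11.2%) and 404 (9.68%) by CPM. Among genes with at least 20 UMIs in red cells, 71 of 182 (39.0%) in WT and 56 of 68 (82.4%) in mutant were at least 2-fold higher by CPM. That minimum was set in red cells themselves, so the choice raises these shares and no conclusion is drawn from them. It was also stricter in mutant, whose red cells held 10293 non-globin UMIs against 21652 in WT. Tested means an unweighted mean of at least 0.05 UMI per cell over red and other cells, which a gene rare in other cells can pass only through red cells. Of the 47 measured erythroid genes, 26 passed this minimum in WT and 24 in mutant, and 10 and 9 had 0 UMIs in red cells. The 47 genes made up 24.6% of the non-globin UMIs of WT and 33.3% of mutant cells over 90% globin, and 0.206% and 0.202% in other cells.

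Heme synthesis was represented almost entirely by its first and last enzymes. Alas2, which starts the pathway, ranged from 0 to 29 UMIs in WT red cells with a median of 8.5, and up to 25 in mutant red cells with a median of 9, and averaged 9.10 and 9.94 UMIs per cell. Other cells averaged 0.007 and 0.006, so the ratio was 1381 (832 to 2479) in WT and 1561 (955 to 2744) in mutant. The level of other cells rested on 15 and 16 UMIs, of which 9 and 8 were in 1 cell each, so the ratio is less certain than its counting interval. Fech, which inserts the iron, averaged 2.15 and 2.15 UMIs per red cell, 15.5-fold (12.8 to 18.6) and 14.2-fold (11.8 to 17.0) above other cells. The enzymes between them were sparse, with 8 and 8 UMIs of Urod, 2 and 6 of Alad, 1 and 1 of Ppox, 0 and 2 of Uros and 0 and 1 of Cpox over all WT and mutant red cells.

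Iron handling RNA came mostly from ferritin, which stores iron. The ferritin chains Ftl1 and Fth1 averaged 8.83 and 2.75 UMIs per WT red cell and 5.48 and 2.56 per mutant red cell, at 0.650 and 0.377 (WT) and 0.553 and 0.249 (mutant) of the level in other cells. As CPM the same chains were 10.4-fold and 6.02-fold (WT) and 13.4-fold and 6.01-fold (mutant) above other cells, so the direction depended on the scale. Slc25a37, the mitochondrial iron importer mitoferrin, had 14 and 9 UMIs. Blvrb, biliverdin reductase B, had 33 and 22. Tfrc, the transferrin receptor through which erythroid precursors take up iron, had 0 UMIs in all red cells of both libraries, as had Abcb6, Abcb10, Slc11a2, Slc25a38 and Steap3. A count of 0 over 88 or 79 cells limits these genes only to low levels at this depth.

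Membrane and skeleton genes were sparse. The 18 genes summed to 2.81 UMIs per WT and 1.99 per mutant cell over 90% globin, and 43 of 86 and 35 of 77 of these cells had none. Other cells had 1.41 and 0.641, so the level was 1.99-fold and 3.10-fold above theirs. Cd24a, a surface glycoprotein of erythroid and other blood cells, gave most of them, with 146 and 96 UMIs, 7.71-fold (6.41 to 9.23) and 19.4-fold (15.0 to 24.9) above other cells over all red cells. Slc4a1 was at least 224-fold higher in WT red cells and at least 180-fold higher in mutant ones, taking 3 UMIs over all other cells as the limit of a count of 0. Epb41, the skeletal protein 4.1R, had 18 and 22 UMIs. The spectrin gene Sptb and the blood group genes Rhag and Kel had 0.

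Metabolic and antioxidant genes were among the most abundant. Bpgm, the enzyme that makes the 2,3-bisphosphoglycerate which lowers the oxygen affinity of hemoglobin, ranged up to 22 UMIs in WT and 18 in mutant red cells, with medians of 3.5 and 2, and was 72.2-fold (59.8 to 87.7) and 38.9-fold (32.2 to 47.1) above other cells. Gpx1 averaged 4.18 and 3.66 UMIs per red cell, 2.21-fold and 2.36-fold above other cells, but it was seen in only 46 and 39 red cells, with medians of 1 and 0. Car2, carbonic anhydrase 2, had 65 UMIs in 13 WT and 35 UMIs in 14 mutant cells over 90% globin, with up to 25 and 7 in 1 cell, 191-fold (94.7 to 437) and 57.1-fold (32.1 to 104) above other cells. Over all mutant red cells it had 72 UMIs and was 115-fold above other cells, since 1 cell of 50 to 90% globin held 34. The direction for Prdx2, peroxiredoxin 2, depended on the scale, and that for Cat, catalase, was clear only by CPM. Per cell, Prdx2 was at 0.746 (0.628 to 0.879) and 0.766 (0.634 to 0.919) of their level in WT and mutant, and Cat at 1.19 (0.607 to 2.11) and 0.741 (0.353 to 1.38). As CPM, Prdx2 was 11.9-fold and 18.5-fold above other cells, and the counting interval of the Cat ratio ran from 9.70 to 33.8 in WT and from 8.53 to 33.3 in mutant. Pklr had 0 UMIs.

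Genes of late maturation formed the largest group. The 14 genes, many of them of ubiquitin-dependent protein turnover and of organelle removal, averaged 17.3 UMIs per WT and 13.5 per mutant cell over 90% globin, 11.5 and 12.0 times the level in other cells. Mkrn1 averaged 5.94 and 5.03 UMIs per red cell (28.9-fold and 30.2-fold above other cells), Ube2l6, a ubiquitin- and ISG15-conjugating enzyme, 3.13 and 2.59 (31.1-fold and 17.4-fold), and Bnip3l, which marks mitochondria for removal, 1.83 and 1.14 (4.13-fold and 3.79-fold). Isg20, an interferon-stimulated exonuclease, was 139-fold and 62.0-fold above other cells, and Rsad2, another interferon-inducible gene outside the list, 160-fold and 178-fold, with 31 and 28 UMIs. Trim10, a TRIM protein of late erythroid differentiation, differed between the libraries, with 20 UMIs in 7 mutant red cells (15 in 6 over 90% globin) against 2 UMIs in WT red cells.

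**Figure D4:**
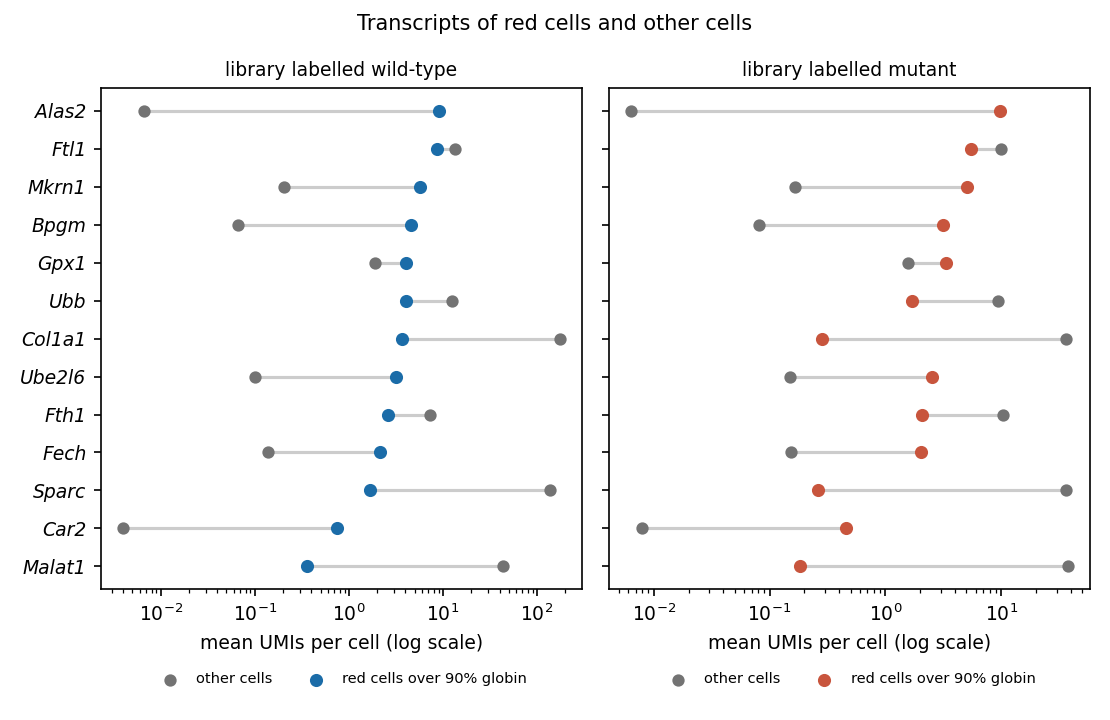
Mean UMIs per cell (horizontal axis, log scale) of 13 genes in red cells over 90% globin (colored points) and in other cells (gray points), with the WT library at left and the mutant library at right; a gray line joins the values of a gene. Alas2, Mkrn1, Bpgm, Ube2l6, Fech and Car2 lie far to the right of other cells in both libraries, and Col1a1, Sparc and Malat1 far to the left.

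Genes of earlier erythroid stages were nearly absent. Of 8 erythroid regulators, Gata1, Klf1, Gfi1b, Epor and Zfpm1 had 0 UMIs in red cells of both libraries, Tal1 and Nfe2 had 0 in WT and 1 each in mutant, and Lmo2, also expressed in other cells, had 8 and 7. The progenitor genes Kit, Gata2, Myb and Flt3 had 0. Among 10 proliferation genes, Mki67, Cdk1 and Cenpf had 0, whereas Ube2c, a ubiquitin-conjugating enzyme of mitosis, had 38 and 36 UMIs, in 22 WT and 16 mutant cells, and Nusap1 8 and 6. The proliferation list made up 0.314% and 0.484% of the non-globin UMIs of cells over 90% globin, against 0.063% and 0.067% in other cells. Ube2c was at 1.18 (0.826 to 1.63) and 1.95 (1.36 to 2.74) times the level of other cells, and had 0 UMIs in the red cells under 8% Hbb-bt in both libraries. Nuclear RNAs were low, with Malat1 at 0.828% and 0.484% of the level of other cells in cells over 90% globin.

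Tendon transcripts in the red cells were counted because red cells are not known to make them. The 16 tendon genes averaged 9.31 UMIs (SD 7.42, median 8, range 0 to 42) in the 86 WT cells over 90% globin and 1.06 UMIs (SD 2.28, median 0, range 0 to 16) in the 77 mutant cells. In WT 4 of the 86 cells had none, and in mutant 44 of the 77. Against other cells, which averaged 526.5 and 122.2 tendon UMIs, this was 1.77% (1.65 to 1.90%) in WT and 0.871% (0.693 to 1.08%) in mutant. Over all red cells it was 1.90% and 0.860%, but 30.4% (28.5 to 32.5%) and 20.8% (16.5 to 25.7%) as CPM of non-globin UMIs. At over 30% globin it was 2.09% (1.96 to 2.22%) and 3.56% (3.19 to 3.95%), so the order of the libraries turned, and 1 added mutant cell, with 37.8% globin, held 242 tendon UMIs. RNA from the suspension and from a second cell in the droplet would count in the same way, and the source of these UMIs was not tested.

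The share of the level in other cells was also taken gene by gene. Scx values include the ScxGFP reporter, per the notes of the study, and are not those of the gene alone. Among tendon genes with at least 10 UMIs in WT cells over 90% globin, the level was 1.24% (Sparc) to 2.24% (Fmod) of that in other cells, with Col1a1 at 2.08%, Scx at 2.17% and Tnmd at 2.18%. In the mutant library Sparc was at 0.715%, Col1a1 at 0.796% and Scx at 1.04%, while Tnmd with 7 UMIs and Fmod with 3 were at 1.89% (0.759 to 3.89%) and 2.04% (0.420 to 5.95%). By CPM over all red cells, 14 of 16 tested tendon genes in WT were at least 2-fold lower than in other cells and 0 at least 2-fold higher. In mutant 13 of 15 were lower and 2 higher. Of all tested genes, 47.7% in WT and 73.3% in mutant were lower in the same way, and 10.7% and 11.2% higher. Lower calls were thus common among genes of any kind, above all in mutant, and the tendon counts are not read as a result about tendon genes. Dcn and Col3a1, of fibroblasts, were at 1.74% and 1.93% in WT and 0.539% and 0.757% in mutant. Across lists the shares for WT and mutant were 1.57% and 0.663% for fibroblast and peritenon genes, 1.13% and 0.483% for immune genes and 0.875% and 0.409% for nuclear long non-coding RNAs. Cytosolic ribosomal protein genes, at 2.12% and 1.35%, and mitochondrially encoded genes, at 4.23% and 1.68%, were higher, and Rpl41 reached 6.43% and 5.47%. The tendon list and each of the lists just named had a lower share in the mutant library. The immune value rested on 7 and 2 UMIs, and its counting intervals (0.456 to 2.34% and 0.059 to 1.75%) overlapped. Other lists, most of them sparse, went either way. Pericyte and smooth muscle genes were at 1.29% (15 UMIs) in WT and 0.263% (1 UMI) in mutant, skeletal muscle genes at 3.92% (2 UMIs) and 0, neutrophil genes had 3 UMIs and 0, and iron handling genes were at 54.4% and 37.4%. Cartilage genes were at 1.77% (4 UMIs) in WT and 5.51% (2 UMIs) in mutant, Schwann cell genes at 0 and 2.60% (0 and 8 UMIs), endothelial and platelet genes had 0 and 1 UMI each, and proliferation genes were at 22.0% and 24.5%.

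**Figure D5:**
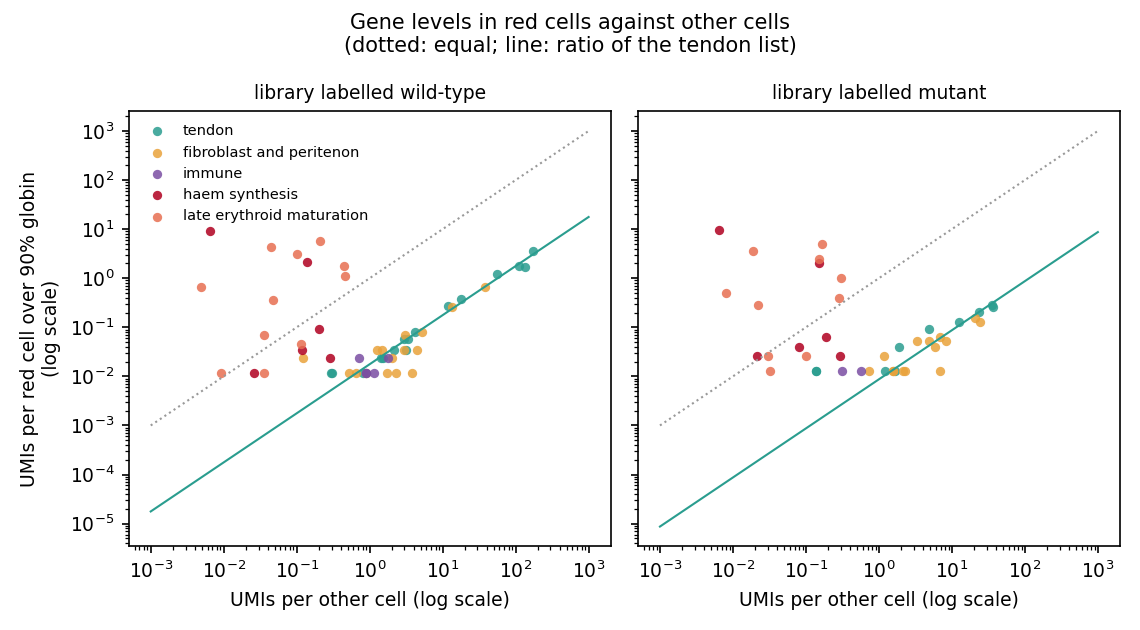
Each point is 1 gene of 5 lists, with its UMIs per other cell on the horizontal axis and its UMIs per red cell over 90% globin on the vertical axis, both on log scales; genes at 0 in either are not drawn, and the lowest row of points holds genes with 1 UMI. The solid line is the ratio of the tendon list (1.77% in WT, 0.871% in mutant). Tendon and fibroblast genes with at least 10 UMIs in these cells lie near it, while genes with fewer UMIs can lie farther off. The leading heme synthesis and maturation genes lie above the dotted line of equality.

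The share of red cells with a tendon UMI was high in WT although the level was low. Scx, the tendon transcription factor, was seen in 62.8% of WT cells over 90% globin (median 5597 UMIs) at a mean of 1.21 UMIs, and in 13.0% of mutant ones (median 4408 UMIs) at a mean of 0.130. Col1a1 was seen in 88.4% and 19.5%. Cells with at least 5 UMIs of 8 leukocyte genes (Ptprc, Tyrobp, Fcer1g, Lyz2, Cd52, Laptm5, Coro1a and Cd53), 193 in WT and 194 in mutant, showed Scx in 72.0% and 13.4% at medians of 2413 and 1704 UMIs. Other cells showed Scx in 84.8% and 28.1%. Thinned to 1000 UMIs per cell, with 0, 2 and 18 WT cells and 2, 13 and 51 mutant cells left out as shallower, the shares with Scx became 19.8% and 2.67% in red cells, 51.3% and 3.87% in the leukocyte-gene cells and 67.8% and 18.2% in other cells. Thinning removes UMIs in proportion, so the globin of red cells takes most of what is left. The leukocyte-gene cells had a median of 8 tendon UMIs in WT, as red cells did, and of 1 in mutant, but higher means of 36.9 and 8.67.

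How the tendon UMIs of red cells compared between the libraries depended on the globin threshold and on the scale. Per red cell the mutant level was 0.105 (0.083 to 0.131) of WT, and 0.114 (0.090 to 0.144) over 90% globin, whereas per other cell it was 0.232 (0.231 to 0.233). At over 30% globin the ratio was 0.395 (0.348 to 0.446), on the other side of that of other cells. As CPM of non-globin UMIs it was 0.198 (0.156 to 0.248) over all red cells, which is not to be set beside the per-cell value of other cells. On the CPM scale the tendon level of red cells over other cells was 30.4% in WT and 20.8% in mutant. Relative to other cells, the mutant level was thus lower by CPM as well. Fibroblast genes were at 0.490 (0.344 to 0.689) in red cells over 90% globin and at 1.16 (1.16 to 1.17) in other cells. Globin UMIs per red cell were at 0.768 of WT, late maturation genes at 0.797 (0.737 to 0.861) and heme synthesis genes at 1.08 (0.992 to 1.18). The mutant library was also shallower, and the part of depth in these ratios was not tested.

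Globin was also detected in cells that were not red, and its source there was not tested. Among cells under 5% globin, 60.3% of 2274 WT cells (58.3 to 62.4%) and 33.2% of 2509 mutant cells (31.4 to 35.1%) held at least 1 adult globin UMI, with means of 1.25 and 0.719 UMIs and highest values of 42 and 89. This was 0.024% and 0.018% of the mean globin of a red cell. The leukocyte-gene cells held means of 0.855 and 0.381 UMIs. The alpha share of this globin differed from that of red cells. Alpha genes gave 32.3% (30.6 to 34.0%) of 2846 UMIs in WT and 33.7% (31.5 to 35.9%) of 1805 in mutant, against 47.5% and 45.3% in red cells. Hbb-bt gave 12.3% (10.9 to 13.8%) and 12.8% (10.9 to 14.8%) of beta UMIs, against 15.3% and 14.2%, and the mutant interval held the value of the red cells. The lower alpha share lay outside the counting interval of the red cells in both libraries. A share pooled over many cells cannot be judged by the range of single red cells, and the difference was not tested.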

How the data were processed

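The authors made the deposited counts from 10x Chromium 3′ libraries aligned to mm10 with Cell Ranger (version 1.2.0 per the submitters' processing notes, a later one in the methods) and kept barcodes by total UMIs. The deposited values are whole UMI counts over 27998 genes, without normalization, 9451606 in the WT and 8250248 in the mutant library. All barcodes were used, and rows sharing a symbol were summed. UMIs were summed per library and cell group and given per cell or as CPM of non-globin UMIs. Shares have exact binomial (Clopper-Pearson) and ratios exact conditional Poisson 95% intervals. Only the ratio intervals were tried on simulated data, drawn as Poisson counts without clustering by cell. That trial does not show how they behave where the UMIs of a gene cluster in single cells. The genes named are the globins, the 10 genes highest in red or other cells, the 10 with the largest CPM ratio at 20 or more UMIs in red cells, and list examples. The cells, lists and genes were chosen with earlier results of these data known. Alternatives were other globin thresholds, added embryonic globins, filters on cells and genes, removal of doublets called by Scrublet (expected rate 2%, scanpy 1.11.5), other scales and medians of gene ratios. Ahsp, Flvcr1 and Hbb-bh0 were not matched to a symbol. Some genes that the rule would name are not reported here. The work used Python 3.11.15, NumPy 2.4.6 and SciPy 1.17.1.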

Additional observations from a re-analysis of the deposited data

Results flagged for a closer look

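The skeletal muscle list stood at 2.02 times the level of other cells per mutant red cell but at 0.057 times per WT red cell, opposite directions in the libraries, and the difference was not tested. All 207 muscle UMIs of mutant red cells were in the 1 cell with 80.3% globin, and the 77 mutant cells over 90% globin had 0.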

How the results depend on the processing

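No paired analysis was possible because each genotype had 1 library. Of 68 alternative values, 47 lay within the counting interval of the value reported or, for counts of genes, within 1.5 times of it, 21 moved beyond that and 0 reversed. Only the mutant over WT ratio of the tendon list was scored for reversal, so the 0 says nothing about the other results. The 0 also leaves out the order of the libraries in the tendon level, which turned at over 30% globin. Within this limit, the WT count of genes at least 2-fold higher was 710 at over 30% globin against 488. Requiring at least 500 genes and under 10% mitochondrial UMIs left red cells at 0.0885% of WT and 0.0399% of mutant cells, so this filter removed nearly all of them. The number of genes at least 2-fold higher was 42 (WT) and 44 (mutant) by UMIs per cell, 1178 and 747 at a mean of at least 0.02 UMI, 235 and 213 at 0.1, and 199 and 207 at 4-fold. With at least 20 UMIs in red cells it was 71 and 56, a minimum set in red cells themselves and chosen after seeing the data. The tendon level of red cells over other cells was 2.09% in WT and 3.56% in mutant at over 30% globin, where 1 added mutant cell held 242 tendon UMIs. In WT it was 1.77% at over 70% and 1.77% at over 90% globin. As CPM it was 30.4% in WT and 20.8% in mutant. The mutant over WT ratio was 0.395 at over 30% globin and 0.198 as CPM. The Hbb-bt share of mutant red cells was 13.9% at over 90% globin. A depth of 10 to 588 non-globin UMIs per cell over 90% globin limits every statement on single genes, and genes with 0 UMIs may be present below this depth.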
